A study of Drosophila melanogaster with 3 samples.

Results

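Of the 3515 regions in the conservative peak list for CG14050-eGFP in Drosophila melanogaster embryos, 561 lay inside autosomal genes and far from promoters. A region was taken if its summit fell on an autosomal arm, inside the span of a protein-coding gene, and over 2000 bp from every protein-coding transcription start site (TSS) of the Ensembl BDGP6 annotation. These 561 distal gene-body peaks are called members below. For comparison, the same list held 347 intergenic autosomal peaks over 2000 bp from a TSS and 1346 autosomal promoter peaks within 500 bp of one.

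The study profiled binding of the CG14050 protein by chromatin immunoprecipitation and sequencing (ChIP-seq). Flies carried a transgene for CG14050 fused to enhanced green fluorescent protein (eGFP), and an antibody to GFP pulled the fusion down from sonicated chromatin of 200 to 800 bp. There was 1 group, whole embryos aged 0 to 24 h, with 3 biological replicates. The labels name a control experiment, which was not analysed here, and there was no untagged or other-stage group. Because whole embryos of mixed age were used, occupancy in few cells and weak occupancy in many cells cannot be told apart.

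Introns of fly developmental genes often carry enhancers and insulator elements, short stretches of DNA to which sequence-specific factors bind. Enhancers raise transcription from a promoter that can lie many kilobases away, and insulator proteins such as CTCF limit which promoters an enhancer can reach. First introns are commonly long in genes of this kind. A ChIP-seq peak marks DNA recovered with the tagged protein, directly bound or held through other proteins, and does not by itself mark an enhancer.

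The first set of sequences shows 3 of the strongest members, each the bases up to 50 bp on either side of a peak summit, from the plus strand of the RefSeq copy of the dm6 genome. Neither of the 2 words past the threshold, described below, is in them, so all letters are in lower case. They lie in introns of CG32486, of osa (a subunit of the Brahma chromatin-remodelling complex) and of Gug (Grunge, an Atrophin family corepressor), at chr3L:3060742-3060842, chr3R:17704372-17704472 and chr3L:8458250-8458350.
CG32486: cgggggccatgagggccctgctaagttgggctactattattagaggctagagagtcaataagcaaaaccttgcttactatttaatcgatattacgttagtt
osa: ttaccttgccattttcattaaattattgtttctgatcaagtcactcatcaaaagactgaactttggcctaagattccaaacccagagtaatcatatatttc
Gug: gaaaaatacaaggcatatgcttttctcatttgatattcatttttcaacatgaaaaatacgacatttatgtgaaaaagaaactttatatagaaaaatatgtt
The second set shows 4 members that held the CTCF core, one of 2 words found more often in members than in regions that did not pass the threshold. The capitals mark the core (AGATGGCGC or AGGTGGCGC, or its reverse complement). The windows are chr2L:11816532-11816632 for Pde1c, chr3L:17988306-17988406 for Eip75B, chr2L:7535017-7535117 for RapGAP1 and chr3L:3767947-3768047 for CG32264, and Pde1c held the core at 2 places.
Pde1c: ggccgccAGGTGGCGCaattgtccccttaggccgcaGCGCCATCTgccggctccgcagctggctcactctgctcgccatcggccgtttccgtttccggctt
Eip75B: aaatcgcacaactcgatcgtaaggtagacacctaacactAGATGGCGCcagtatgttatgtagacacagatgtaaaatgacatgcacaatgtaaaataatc
RapGAP1: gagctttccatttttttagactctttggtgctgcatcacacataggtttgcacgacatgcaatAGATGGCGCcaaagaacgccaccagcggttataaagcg
CG32264: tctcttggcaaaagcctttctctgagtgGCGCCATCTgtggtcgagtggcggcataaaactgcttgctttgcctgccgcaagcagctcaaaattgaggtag
The third set shows 3 members with the other word, ACAGTG, in capitals on whichever strand it was read. They are windows in rdx (roadkill, an adaptor of a ubiquitin ligase) at chr3R:14018102-14018202, in REPTOR (a transcription factor downstream of TOR kinase) at chr3R:24567529-24567629 and in Eip74EF (an ETS factor induced by ecdysone) at chr3L:17567001-17567101.
rdx: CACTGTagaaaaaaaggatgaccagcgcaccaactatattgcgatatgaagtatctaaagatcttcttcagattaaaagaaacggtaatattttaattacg
REPTOR: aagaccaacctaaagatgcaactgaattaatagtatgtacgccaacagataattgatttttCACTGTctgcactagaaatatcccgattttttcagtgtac
Eip74EF: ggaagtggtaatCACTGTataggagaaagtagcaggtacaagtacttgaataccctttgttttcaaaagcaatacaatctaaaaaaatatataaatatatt

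The files are lists of ranked regions, each with the authors' signal (peak height, on a scale not given in the sources used here), and shorter lists of the regions that passed a threshold on the irreproducible discovery rate (IDR) of 0.01. Each replicate had its own pair of lists, with 2155, 2433 and 2282 passing peaks in replicates 1, 2 and 3. Read depth is unknown, since the lists hold no read counts. In the ranked list behind the conservative one, the first of the 2 compared entries was identical to a region of replicate 2's list in 63.4% of cases and the second to a region of replicate 3's list in 66.2%. Only 1 of the 63709 second entries matched a region of replicate 1's list. Identity was read from coordinates, not from a label. Shares over regions carry intervals for counting error only, because regions of 1 genome are not replicates of a condition.

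The members were spread over the 4 large arms, with 128 on 2L, 129 on 2R, 149 on 3L and 154 on 3R, and 1 on chromosome 4. Per Mb of gene-body sequence over 2000 bp from a TSS, this was 14.1 members on 2L, 13.4 on 2R, 13.6 on 3L, 10.5 on 3R and 1.31 on chromosome 4. The arms other than chromosome 4 thus lay between 10.5 and 14.1 per Mb. Of ranked regions under the same location rule, 2.81% passed on 2L, 3.00% on 2R, 2.81% on 3L and 2.36% on 3R. On chromosome 4 there were 46 such ranked regions, and 2.17% passed (exact interval 0.0550 to 11.5%). Over all autosomes the share was 2.71%. The chromosome 4 peak, with a signal of 335, was in a UTR or noncoding exon of Cals (Calsyntenin, a cadherin family membrane protein) and was found in all 3 replicate lists. The strongest member on 2L was in beat-Ib (492), on 2R in CG12769 (947), on 3L in CG32486 (941) and on 3R in osa (923).

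Most members were intronic. The summit lay in an intron and in no exon in 535 of 561 members (95.4%). It lay in an intron of the host and in an exon of a noncoding gene in 9. It was in a coding exon in 9, and in a UTR or noncoding exon of the host in 8. Counting any summit in an intron of at least 1 host transcript gave 545 of 561 members. The same count was 15535 of 19490 regions that did not pass, under the same location rule and over 1 kb from a passing region. The distance to the nearest protein-coding TSS had a median of 6020 bp and ran from 2012 to 85928 bp. It was over 5000 bp in 333 members, over 10 kb in 165 and over 20 kb in 48. The nearest TSS belonged to a host gene in 410 members (73.1%) and to another gene in the rest. The introns that held the summits had a median length of 15534 bp, and the host genes a median length of 42420 bp when counted once per member and 30215 bp over the 337 hosts. Just inside the distance limit lay peaks in ps (2012 bp, signal 68.2), fra (2038 bp, 135) and grh (2054 bp, 220). Just outside it lay peaks in oys (1992 bp, 238), msn (1995 bp, 113) and fru (1997 bp, 202).

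The signal of the members had a median of 125 and ran from 2.97 to 947. The medians were 118 in the intergenic and 143 in the promoter peaks. Members of very low signal were not separate sites. All 50 members with a signal under 50 were matched to the same pair of underlying peaks as another region of the list. In total 100 members (17.8%) shared their matched pair, with a median signal of 50.2 against 134 for the others. Counted by matched pair, the 561 members came to 509 sites, and sites are given below beside counts per gene. The same sharing was found in 14.7% of intergenic and 15.8% of promoter peaks.

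The share of ranked regions that passed was low in gene bodies. In the ranked list behind the conservative one, 5.54% of regions on all 6 arms passed, while among regions under the members' location rule 561 of 20728 passed (2.71%). Intergenic regions passed in 2.89% and promoter regions in 15.9%. Gene-body and intergenic regions differed by less than the counting error, with an odds ratio of 0.936 (95% interval 0.817 to 1.07, Fisher's exact test, two-sided p = 0.346). The direction did not hold when summits in exons were left out, where the odds ratio was 1.17 (1.02 to 1.35, Fisher's exact p = 0.0226), nor within bins of GC content, where it was 1.01. In the replicates' own lists, the gene-body share was 2.29% in replicate 1, 2.36% in replicate 2 and 2.19% in replicate 3 (2.28 ± 0.0889%, SD, n = 3), against 4.36%, 5.02% and 4.88% of all ranked regions. The corresponding intergenic share was 2.49 ± 0.160% (SD, n = 3). The replicate lists held 341, 370 and 329 such gene-body peaks, which were 19.5%, 19.2% and 18.02% of their autosomal peaks, and members were 19.96% of the autosomal conservative peaks.

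Replicate 1's list held a peak over 279 members (49.7%, exact interval 45.5 to 53.95%), replicate 2's over 328 (58.5%, 54.3 to 62.6%) and replicate 3's over 324 (57.8%, 53.5 to 61.9%), a mean of 55.3 ± 4.85% (SD, n = 3). The list of replicate 1 had the fewest passing peaks and held the fewest members. Replicate 1 also gave almost no identical entries to the conservative comparison. The cause of its lower share was not tested. Regions that did not pass were rarely in these lists. Among 19490 gene-body regions over 1 kb from any passing region, the 3 lists held 0.313%, 0.334% and 0.108%. Replicate 1's list, which gave 1 such match to the conservative comparison, thus held 49.7% of members and 0.313% of those regions (95% exact interval 0.239 to 0.402%). Members and not-passing regions are separated by a threshold on reads that partly come from the same replicates, so this contrast is a description.

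Members found in all 3 replicate lists numbered 185 (33.0%, exact interval 29.1 to 37.0%). A further 121 were in 2 of the lists, 134 in 1 and 121 in none. Signal rose with recurrence, from a median of 85.5 in the members found in no replicate list to 107, 134 and 220 in those found in 1, 2 and 3. The conservative signal and the thresholded replicate lists come partly from the same reads, so this rise is a description. The 3 groups below 3 lists overlapped widely in signal, and members over 300 were all in the group found in 3 lists. The share in all 3 lists was not called different from that of intergenic peaks (31.1%, odds ratio 1.09, 0.817 to 1.45, Fisher's exact test, adjusted p = 0.609). It was lower than that of promoter peaks (45.1%, odds ratio 0.599, 0.487 to 0.736, exact test, adjusted p = 1.89e-06). Within quartiles of signal the difference from promoter peaks missed the threshold, with an odds ratio of 0.828 (0.592 to 1.16, exact stratified test, adjusted p = 0.621). Across 534 members with a region in all 3 ranked lists, Spearman's rank correlation of the signals was 0.604 between replicates 1 and 2, 0.692 between 1 and 3 and 0.638 between 2 and 3, as a description over regions that share libraries.

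**Figure D1:**
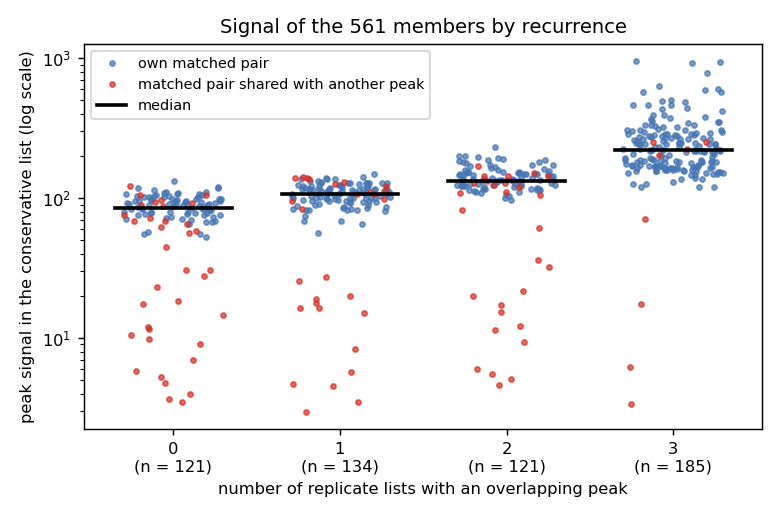
Signal of each of the 561 members in the conservative list (vertical log axis) by the number of replicate lists, 0 to 3, with an overlapping peak; black bars are medians and red points share their matched pair of peaks with another region. The median climbs from 85.5 to 220, a description because the lists partly share reads, and the points below 50 are red.

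Among the 20 members of highest signal found in all 3 replicate lists (signal 390 to 947), 12 were in a first intron and 10 were over 5000 bp from a TSS. The peak in otp was in a coding exon and the others were intronic. Signals of the replicates come from separate lists whose scales may differ, so they are given side by side, and a peak's rank by signal within each list is given where its place is described. The first of them, in CG12769 on 2R (8061019, 2468 bp from its TSS), had a signal of 310 in replicate 1, 310 in replicate 2 and 323 in replicate 3. It ranked 36, 56 and 51 in the 3 replicates' lists. The peak in CG32486 had 271, 382 and 296 in replicates 1, 2 and 3, and the nearest TSS was that of CG16753 at 5713 bp.

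The gene osa held 2 of the 20, both in an intron whose order is 4 at the lowest over its transcripts. The stronger one, 13928 bp from the osa TSS, had a signal of 202 in replicate 1, 356 in replicate 2 and 365 in replicate 3, and the weaker one had 183, 207 and 216. The weaker one ranked 130, 134 and 132 in the lists of replicates 1, 2 and 3, while the stronger one ranked 38 in replicate 2's list and 35 in replicate 3's and lower in replicate 1's. The weaker osa peak lay 150 bp from the TSS of the noncoding gene lncRNA:CR46036. Further members among the 20 were in Gug (193, 227 and 214 in replicates 1, 2 and 3), upSET (a SET domain protein, 183, 190 and 202), JIL-1 (a histone H3 kinase, 136, 132 and 160) and simj (a component of the NuRD complex, 139, 158 and 138). A peak inside both Mi-2, the ATPase of NuRD, and Su(Tpl) had 111, 168 and 138.

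The member in Hr3, which also lies within CG46321 and CG12912, had 215, 260 and 294 in replicates 1, 2 and 3. Hr3 is a nuclear receptor of the ecdysone response. Eip63E, a cyclin-dependent kinase gene induced by ecdysone, had 171, 213 and 195, at 2257 bp from its TSS. The peak within CG33158 and aos (argos, a secreted inhibitor of the EGF receptor) had 141, 160 and 170. The immunoglobulin superfamily gene beat-Ib held 2 peaks, one with 126, 207 and 156 and the other with 113, 131 and 149. The member in Dys (dystrophin) had 82.7, 161 and 154, and ranked 625, 229 and 260 in the lists of replicates 1, 2 and 3, so that it stood lower in replicate 1's list than in the others.

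**Figure D2:**
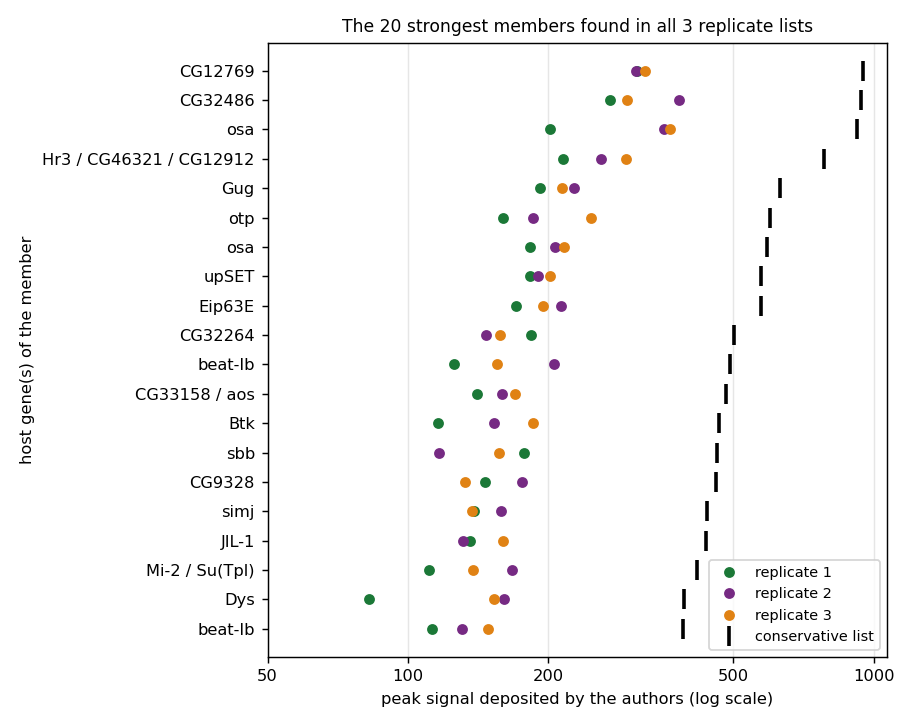
Signal of the 20 strongest members found in all 3 replicate lists, by host gene (rows); coloured points are the region in each replicate's own list and black ticks the conservative list, on a log axis. Replicate points run from 82.7 to 382 and the ticks from 390 to 947, and as the lists are separate their scales may differ.

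The members fell in 337 protein-coding host genes. Of these, 225 hosts held 1 member, 112 held at least 2 and 32 held at least 4, and 25 members lay inside more than 1 gene. The most members were in ftz-f1 (15 members, 9 sites), shn (11 members, 6 sites) and sbb (9 members, 9 sites). Then came cv-c (7 members, 6 sites), rdx (6 and 5), ush (6 and 6), hth (6 and 6), Pdp1 (6 and 5), Hipk (6 and 4) and mtgo (6 and 4). These include the nuclear receptor ftz-f1, the Dpp pathway zinc-finger factor shn (schnurri), the zinc-finger factor sbb (scribbler), the GATA cofactor ush (u-shaped), the homeodomain factor hth (homothorax), the bZIP factor Pdp1 and the kinase Hipk. A promoter peak within 500 bp of the gene's own TSS was present in 95 of the 337 hosts (28.2%), and in 864 of the 4667 autosomal genes with sequence over 2000 bp from a TSS (18.5%). These shares are a description, with no test.

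The 15 members of ftz-f1 spanned 35211 bp of a gene of 50703 bp on 3L, and 14 of them lay outside the first intron. The strongest, 16568 bp from the ftz-f1 TSS, had a signal of 43.8 in replicate 1, 92.3 in replicate 2 and 83.5 in replicate 3, and was the 1 member of ftz-f1 found in all 3 replicate lists. Replicate 1's list held 4 of the 15, replicate 2's 7 and replicate 3's 9. In shn, 9 of 11 members were in a first intron, and the strongest had 97.9, 86.8 and 116 in replicates 1, 2 and 3. In sbb, all 9 members were in a first intron and 5 were in all 3 lists. The strongest sbb member, 18802 bp from the TSS, had 178, 117 and 157. The sbb signals ran from 104.3 to 460 with no member of very low signal, whereas those of ftz-f1 ran from 5.05 to 213 and those of shn from 3.47 to 310.

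**Figure D3:**
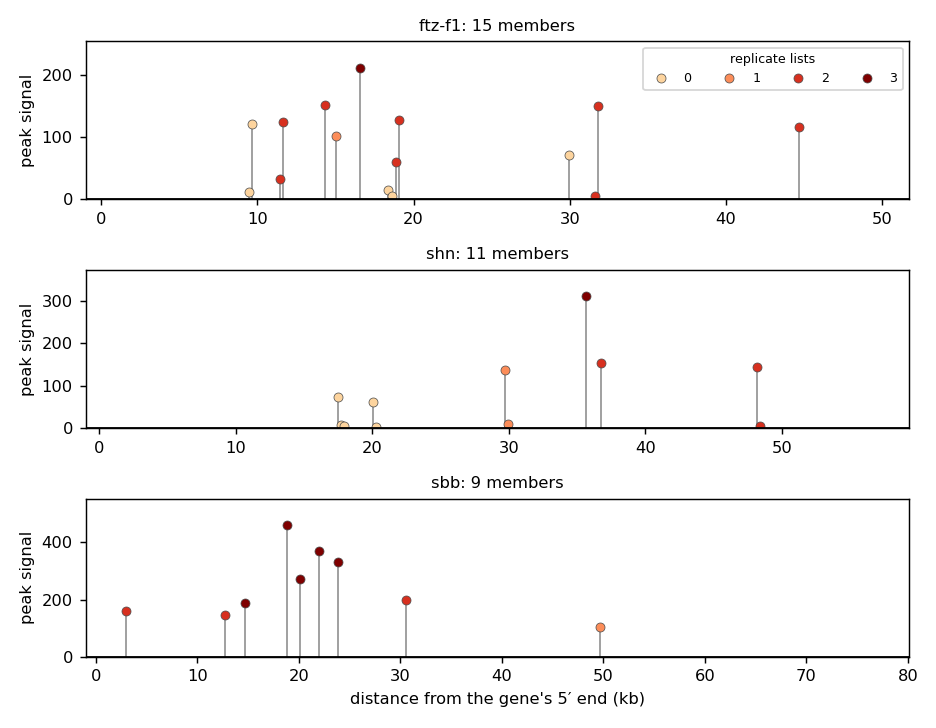
Members along the 3 genes with the most, as distance of the summit from the gene's 5′ end (horizontal, kb) against signal in the conservative list (vertical); colour gives the number of replicate lists with an overlapping peak. ftz-f1 has 15 members and shn 11, many of them pairs of a high and a low region, and sbb has 9 single peaks up to 460.

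Host genes were grouped by 9 lists of gene classes, and members were counted per 100 kb of each list's own gene-body sequence over 2000 bp from a TSS, since long genes offer more sequence. Over all 4667 autosomal genes with such sequence there were 1.26 members per 100 kb (1.14 sites), and 337 genes (7.22%) were hosts. Hosts were 0.925% of genes with up to 5 kb of it and 11.1% with 5 to 20 kb. They were 28.3% with 20 to 50 kb and 41.9% above, at 0.664, 1.43, 1.65 and 1.13 members per 100 kb in the 4 classes. The median was 2.57 kb over all genes, 26.4 kb in the ecdysone response list and 10.7 kb in the signalling list. No set test was run, and counts on each list stand beside these values. The lists were chosen with earlier results of these data known, so the order of their densities is a description. The density was highest in the ecdysone response list, at 5.40 members per 100 kb (4.20 sites) in 9 of 20 genes. In this list 9.78% of ranked regions passed, against 2.72% over all genes, while ranked regions themselves were 55.2 per 100 kb against 46.1. The replicates' own lists gave 2.10, 2.55 and 3.00 peaks per 100 kb (2.55 ± 0.450, SD, n = 3) against 0.769 ± 0.0448 over all genes.

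The ecdysone response hosts were ftz-f1, Hr3 (4 members, 3 sites), Eip75B (4), tai (4 members, 3 sites), EcR (3), Eip63E (2), E23 (2), ImpL2 (1) and Eip74EF (1). EcR encodes the ecdysone receptor, tai its coactivator taiman, and Eip75B a nuclear receptor induced early by the hormone. Of the 36 placements of members in these genes, ftz-f1 held 15. Without it, a count added after seeing the data, the list had 3.37 members per 100 kb (3.05 sites) in 8 of 19 genes. Peaks in ImpL2, a secreted insulin antagonist (signal 263), and in Eip74EF (213) were in all 3 replicate lists.

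Signalling pathway genes came next, at 4.25 members per 100 kb (3.60 sites), in 31 of 100 genes. The replicates' own lists gave 2.12, 2.60 and 2.36 per 100 kb. Beside shn, they included the Wnt receptor gene fz (5 members, 4 sites), the JNK phosphatase gene puc (5 and 4), the Notch coactivator mam (4), the Hippo kinase wts (4) and the ETS factor pnt (4 members, 3 sites). Single members in aos (483), dpp (299), Dad (278) and aop (250) were in all 3 replicate lists. Aos and aop act against EGF receptor signalling, dpp encodes the fly BMP ligand and Dad its inhibitory Smad.

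The other lists lay nearer the value over all genes. There were 2.09 members per 100 kb in BTB and zinc-finger factors (15 of 55 genes), with the strongest in ush (248 and 244) and sr (244). Polycomb, trithorax and chromatin genes had 1.83 (1.62 sites) in 5 of 56 genes. These were jing (4 members, 3 sites, none in all 3 replicate lists), osa (2), Mi-2, Psc and trx (1 each). Muscle and cytoskeleton genes had 1.68 (ena 217, Klp98A 182, Fhos 154) and homeodomain factors 1.49 in 6 of 43 genes (otp 600, hth 287 and 182). The places of the muscle and the homeodomain lists relative to all genes were not the same in every replicate. In replicate 2's list they were below the 0.821 per 100 kb over all genes, at 0.512 and 0.804, and in the other replicates they were above that replicate's value. Axon guidance and adhesion genes had 1.06 in 16 of 98 genes, led by beat-Ib, with babos at 350. RNA-binding regulators had 0.669 (mbl 377, shep 305, heph 244).

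Ion channel and synaptic genes were at the other end, with 2 members in 72 genes and 1620 kb, or 0.123 per 100 kb. These were in Ih, a hyperpolarization-activated channel gene (173), and ChAT, the choline acetyltransferase gene (159). Both were in all 3 replicate lists. The replicates' own lists gave 0.247, 0.185 and 0.185 per 100 kb, each below that replicate's value over all genes. Of the ranked regions in these genes 0.334% passed, and ranked regions were 37.0 per 100 kb.

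**Figure D4:**
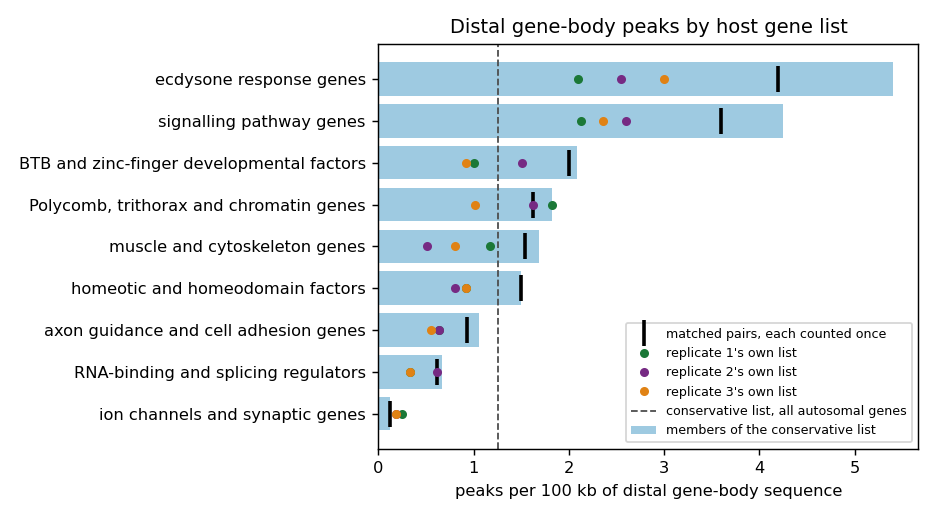
Distal gene-body peaks per 100 kb of distal gene-body sequence for 9 lists of host genes: bars are members, black ticks matched pairs counted once, points each replicate's own list, and the dashed line the conservative value over all autosomal genes (1.26). Ecdysone response (5.40) and signalling genes (4.25) are at the top, and ion channel and synaptic genes (0.123) at the bottom. The lists were chosen with earlier results of these data known.

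Members lay in first introns more often than regions that did not pass. Of 545 members with the summit in an intron of at least 1 host transcript, which include 1 in a coding exon of another transcript, 314 (57.6%) were in the first intron of at least 1 host transcript, against 42.3% of 15535 not-passing regions under the same location rule. The odds ratio was 1.86 (95% interval 1.56 to 2.21, Fisher's exact test, two-sided p = 1.8e-12). The test counts regions as independent, but members cluster within genes. Of the members, 173 (30.8%) had another member within 2 kb. First introns held 9 of 9 members in sbb and 9 of 11 in shn, but 1 of 15 in ftz-f1. The interval and p-value, and the p-values by distance below, may therefore overstate the precision. A test per gene was not run. First introns made up 28.3% of the gene-body sequence over 2000 bp from a TSS. In the replicates' own lists the share was 61.9%, 58.7% and 60.2%, against 46.1%, 41.4% and 42.8% of their not-passing regions, and the odds ratios were 1.90, 2.01 and 2.02 (1.98 ± 0.0671, SD, n = 3). The difference held at each distance. The odds ratio was 1.74 for summits up to 5 kb from a TSS (adjusted p = 0.000484), 1.69 from 5 to 10 kb (adjusted p = 0.00128) and 1.76 over 10 kb (adjusted p = 0.001), with Fisher's exact p-values adjusted across 3 distance classes that were chosen after seeing the data.

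The DNA at the members was poor in G and C. The bases within 50 bp of the summits had a GC content of 33.4 ± 9.36% (SD over 561 members), against 45.9 ± 9.71% in 19490 not-passing regions. In the replicates' own lists the means were 33.3%, 31.7% and 32.5% for gene-body peaks and 44.9%, 45.3% and 46.2% for not-passing regions. The mean was 33.5% in intergenic and 33.4% in promoter peaks, so low GC content was shared by every class of peak compared. Words in members and in not-passing regions were therefore compared within bins of 5 percentage points of GC content.

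Of 34 words and motifs searched on both strands within 50 bp of the summit, 2 passed the threshold of an adjusted p of 0.05 (5.88%), both more frequent in members. The CTCF core, the word shown in capitals above, was in 7 members (1.25%) and in 0.195% of not-passing regions. The odds ratio was 20.5 (8.61 to 48.7, exact stratified test, adjusted p = 4.83e-06). In the replicates' own lists it was 22.9, 15.6 and 38.1 (25.5 ± 11.4, SD, n = 3), on 4, 4 and 7 peaks. The core was also in 1.15% of intergenic and 0.743% of promoter peaks, and members were not called different from either (Fisher's exact test, adjusted p of 1 and 0.713). Without GC bins the odds ratio over not-passing regions was 6.47, and on the members that overlap a peak in both replicate 1's and replicate 2's list it was 19.7 with an adjusted p of 0.199.

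The 7 members with the CTCF core were in otp, Pde1c, EcR, Eip75B, klar, RapGAP1 and CG32264. None lay in a first intron. The summit was in a coding exon in otp, Pde1c and klar, so that 3 of the 9 coding-exon members held the core. The peak in otp (orthopedia, a homeodomain factor), on 2R with its summit at 20884588, had a signal of 160 in replicate 1, 186 in replicate 2 and 248 in replicate 3, and held the core at 2 places. Pde1c, a phosphodiesterase gene, had 64.7, 103.7 and 159 and also 2 cores. These were the only 2 of the 7 found in all 3 replicate lists. EcR had 53.7, 51.3 and 66.1, and Eip75B 39.6, 32.6 and 62.5. The peak in klar (klarsicht, which links nuclei to microtubules) had 28.5, 62.5 and 46.5. RapGAP1 had 20.5, 38.4 and 55.8. CG32264 had no overlapping ranked region in replicate 1, and 28.6 and 55.5 in replicates 2 and 3. The 9 core sites lay a median of 18 bp from the summit. Some motifs not called against not-passing regions lay about as near, such as Mef2 and Pho (medians of 19 bp). Others lay farther, such as the TATA box (24 bp).

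The word ACAGTG was in 46 members (8.20%) and in 4.13% of not-passing regions, an odds ratio of 2.27 (1.63 to 3.15, exact stratified test, adjusted p = 9.72e-05). It was searched as a word without a named factor. Tests were chosen with earlier results of these data known, and the adjustment covers only the 34 words and motifs searched. The odds ratio in the replicates' own lists was 2.25, 2.13 and 3.02 (2.47 ± 0.484, SD, n = 3), on 27, 28 and 31 peaks. ACAGTG was also in 6.34% of intergenic and 7.80% of promoter peaks, and members were not called different from either (Fisher's exact test, adjusted p of 0.740 and 1). The 46 members lay in 45 host genes, counting only the longest host of each. Of these members, 23 were in a first intron, and they had a median signal of 122. They were found in all 3 replicate lists in 8 cases (17.4%). When only members overlapping a peak in both lists of a pair of replicates were kept, the odds ratio was 1.15 to 1.72 and missed the threshold for each pair (adjusted p 0.396 to 0.998). The words lay a median of 30.5 bp from the summit, and 23.9% were within 20 bp of it. The strongest carriers were in rdx (253), REPTOR (244), a region inside both MCU and jv (222), CG4297 (217) and Eip74EF (213), named after their values were seen.

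**Figure D5:**
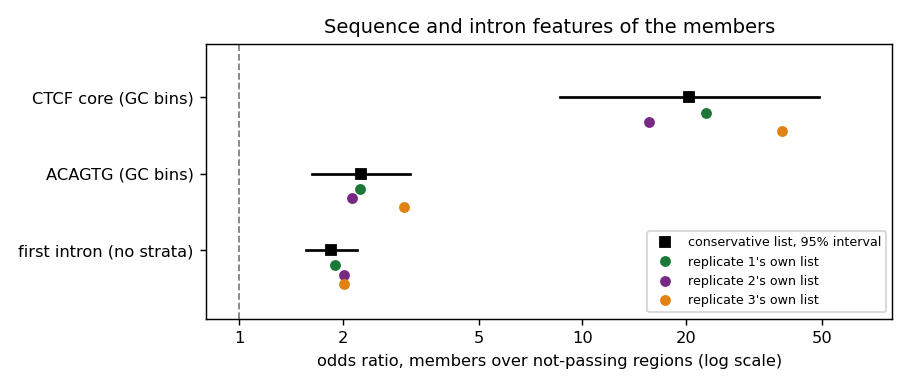
Odds ratios of members over not-passing gene-body regions (log axis) for first introns, ACAGTG and the CTCF core; squares and lines are the conservative list with its 95% interval and coloured points each replicate's own list. All replicate points lie above 1, at 1.90 to 2.02, 2.13 to 3.02 and 15.6 to 38.1. The intervals count regions as independent.

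Members differed from promoter peaks in 3 words. Of 68 tests of the same words against intergenic and promoter peaks, 4 passed (5.88%, Fisher's exact test, adjusted over the 68). The DRE word TATCGATA, a core promoter element, was in 0 of 561 members, which allows a share of up to 0.535%, and in 2.82% of promoter peaks (exact test, adjusted p = 9.16e-05). CGATAG, the word bound by the insulator protein BEAF-32, was in 1.96% of members and 7.06% of promoter peaks (odds ratio 0.263, 0.140 to 0.496, exact test, adjusted p = 9.16e-05). A run of at least 10 A, or of T on the other strand, was in 4.99% of members against 1.63% of promoter peaks (odds ratio 3.16, 1.79 to 5.58, exact test, adjusted p = 0.00229). The same run was in 1.15% of intergenic peaks (odds ratio 4.50, 1.57 to 12.96, exact test, adjusted p = 0.0257). The run was the one word past the threshold against intergenic peaks, and the letters of such matches are a description of the sequence only. Within GC bins, none of these 3 words was called different between members and not-passing regions. DRE was in 0.0975% of not-passing regions and CGATAG in 1.68% (odds ratio 1.22, 0.654 to 2.29). The A or T run was in 2.44% (odds ratio 0.887, 0.590 to 1.33, exact stratified test, adjusted p = 0.891). In the replicates' own lists its odds ratio was 0.724, 0.569 and 0.490.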

How the data were processed

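The 3 replicate samples and the series' lists hold ranked and thresholded regions made by the authors, without headers, on dm6 per the labels. The deposited signal is the authors' peak height, the deposited score encodes the IDR, and the ranked lists also give the −log10 of the global IDR as deposited. Neither the aligner nor the peak caller nor the use of the control is given in the sources used here. No region ended past the reference chromosomes. Signals are compared within a list only, and 8 columns with the signals of matching peaks in the across-replicate ranked lists were not used.

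Summits were placed on the Ensembl BDGP6.54 annotation, release 115. Lists were compared by overlap of at least 1 bp. Not-passing regions had an IDR over 0.01, met the same location rule and lay over 1 kb from a passing region. Words in members and not-passing regions were compared with an exact test stratified by GC content and the Mantel-Haenszel odds ratio with its Robins-Breslow-Greenland interval. Words against intergenic and promoter peaks, and other shares, were compared with Fisher's exact test and Woolf intervals without GC bins, with Benjamini-Hochberg adjustment where an adjusted p is given, all two-sided (Python 3.11.15, SciPy 1.17.1, pandas 2.3.3), and the stratified test was tested on simulated data. The named members are the 20 strongest found in all replicate lists, the 10 hosts with the most members, the CTCF-core members, the 3 strongest per host list, the strongest per arm and the 3 on each side of the distance limit. Alternatives covered the location rule, IDR, other lists, overlap, replicates, window, GC bins and 1 region per matched pair, the last with signal quartiles and distance classes chosen after seeing the data. Members, lists and tests were chosen with earlier results of these data known. Some list symbols were not found in the annotation and were dropped.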

Additional observations from a re-analysis of the deposited data

How the results depend on the processing

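No paired analysis was possible because there is 1 group only. The first-intron odds ratio stayed above 1 and past the threshold in all 16 alternatives run (1.52 to 2.48). Each of them counted regions as independent, although members cluster within genes. The number of members was 333 with the distance over 5000 bp and 334 with an IDR of at most 0.001, and 509 to 768 otherwise. The share in all 3 lists was 55.4% at that IDR, and 38.1 to 42.1% when 1 replicate was left out, since 2 lists are easier to match than 3. The gene-body against intergenic odds ratio turned to 1.05 with TSSs of every gene class, 1.17 with intronic summits only and 1.01 within GC bins, and the cause was not tested. Motifs past the threshold numbered 1 at the strict IDR, 1 in the list of 3534 regions, 16 without GC bins, and 0 to 1 when 1 replicate was left out. The CTCF odds ratio ran from 6.47 to 39.2, and with 1 replicate left out from 19.7 to 39.2. With summits in an intron and in no exon it was 12.4 (4.12 to 37.5, exact stratified test, adjusted p = 0.00812). With the distance over 5000 bp it was 12.9 (3.60 to 45.9, exact stratified test, adjusted p = 0.0485). ACAGTG missed the threshold at the strict IDR (1.89), in the list of 3534 regions (1.71) and with 1 replicate left out (1.15 to 1.72), and gave 3.01 in a window of 100 bp on each side. Within quartiles of signal, recurrence against promoter peaks was 0.828 and against intergenic peaks 0.964. Read depth and input signal were not available to weigh these values, and 7 peaks set the precision of the CTCF core.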

Other observations

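Members within 500 bp of a noncoding TSS were found in all 3 replicate lists more often than the others. With a limit of 2000 bp no difference was called. Of 14 members whose summit lay within 500 bp of a noncoding TSS, 12 were in all 3 replicate lists (85.7%), against 173 of the 547 others (31.6%, odds ratio 12.97, 95% interval 2.87 to 58.6, Fisher's exact test, adjusted p = 0.000118). The median signal was 177 in the 14 and 123 in the others, and within quartiles of signal the odds ratio was 11.0 (1.29 to 93.5, exact stratified p = 0.0226). The 14 include peaks in osa (592), beat-Ib (492 and 390), mbl (377), LpR2 (220), ena (217), puc (186), Hipk (168), Socs36E (165), dlp (163) and ChAT (159). Those not in all 3 lists were the peaks in Hipk, in 2 lists, and in Hr3 (17.9), in 1 list. With the limit at 2000 bp the 41 members near a noncoding TSS were in all 3 lists in 36.6%, against 32.7% of the others (odds ratio 1.19, 0.613 to 2.30, exact test, adjusted p = 0.608). The 41 include the 14, and the 15 of the 41 in all 3 lists include the 12 above. The comparison was chosen after the values were seen.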
